A study of Rattus norvegicus with 10 samples.

Results

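Selenoproteins are enzymes and binding proteins that carry selenocysteine, an amino acid inserted at a stop codon that the ribosome reads through with help from a structure in the messenger RNA. Its synthesis needs selenophosphate, the selenium donor made by the enzyme encoded by Sephs2, and the enzyme encoded by Sepsecs, which uses that donor to form selenocysteine on its own transfer RNA. Liver is the main source of selenoprotein P, the plasma carrier that takes selenium to other organs, and is rich in selenium-dependent glutathione peroxidase. When selenium is short, some selenoproteins and their transcripts are known to be given up before others.

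The 10 genes described here are Sephs2, Sepsecs and 8 selenoprotein genes, namely Selenop, Gpx1, Gpx4, Dio1, Selenow, Selenos, Selenok and Txnrd2. A gene was measured by each probe set that the platform annotation assigns to it alone, which gave 12 probe sets of 31042 tested. The 10 genes stand among 14217 that the table names in this way. Selenop and Gpx4 had 2 probe sets each, and the other genes had 1. For these 2 genes the probe set with the higher mean is called the main one.

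Liver RNA came from 10 male Sprague-Dawley rats, an outbred strain, of which 5 were controls and 5 had been exposed to the effluent of bulk drug factories. The labels name no other treatment, genotype or allele, and the dose, the length of exposure and the age of the animals are not given in the sources used here. Each array stands for 1 animal. Values are log2 expression per probe set, so a difference of 1 is a doubling.

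The gene set was chosen by the value of Sephs2 in this comparison, where it had a rank of 2 by p among all probe sets of the limma fit. Its difference, and those of the other members in the same comparison, are therefore given as descriptions without a test. The question is whether the lower Sephs2 of exposed livers was accompanied by lower selenoprotein transcripts.

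The arrays resembled one another, with correlations between 0.991 and 0.996 for any pair and medians between 5.43 and 5.49. Hepatocyte markers were measured for 7 of 7 genes, with mean values from 9.63 to 14.99, all above the median probe set, which fits the label of the tissue. Kupffer cell markers were higher in exposed livers for 6 of 6 measured genes, with a median difference of 0.21 and 0 past the test. The mean over these markers ran from 7.81 to 9.07 in controls and from 8.15 to 9.11 in exposed animals. Lymphocyte markers were higher for 5 of 6 (median difference 0.14, 0 past the test), with a mean level of 4.71 to 5.06 in controls and 4.80 to 5.15 in exposed animals. Red cell markers were higher for 3 of 3, stellate cell markers for 4 of 5, endothelial markers for 3 of 4 and bile duct markers for 1 of 4, with 0 past the test in each. The part of these cells in the values below was not tested, and in whole liver fewer cells of a type and less RNA per cell cannot be told apart. The 3' to 5' ratio of control transcripts, a sign of RNA quality, was 0.61 ± 0.08 in controls and 0.56 ± 0.04 in exposed animals (log2, SD, n = 5 each).

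Sephs2 itself encodes a selenoprotein as well as making the selenium donor. Control animals 1 to 5 read 11.37, 11.49, 11.47, 11.52 and 11.63. Exposed animals 1 to 5 read 10.87, 10.90, 11.05, 11.33 and 11.00. The groups did not overlap, but exposed animal 4 came within 0.04 of the lowest control while the other exposed animals were at 11.05 or below. The mean went from 11.50 ± 0.09 to 11.03 ± 0.18 (SD, n = 5 each), so that exposed livers differed by -0.47 ± 0.09 (SE), which is 0.724-fold with a 95% interval of 0.635 to 0.825. With the RNA quality ratio as a covariate the difference was -0.41, and without exposed animal 4 it was -0.54.

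With Benjamini-Hochberg adjustment over the whole table, limma passed 0.00% of probe sets at 0.05, and so 0 of the 12 members. At an unadjusted p under 0.05 limma gave 5.46% of all probe sets and 2 of the 12, Sephs2 and Dio1. The groups did not overlap for 0.892% of all probe sets and for 1 of the 12, Sephs2. As the members were chosen with this comparison known, nothing is read from these counts.

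**Figure D1:**
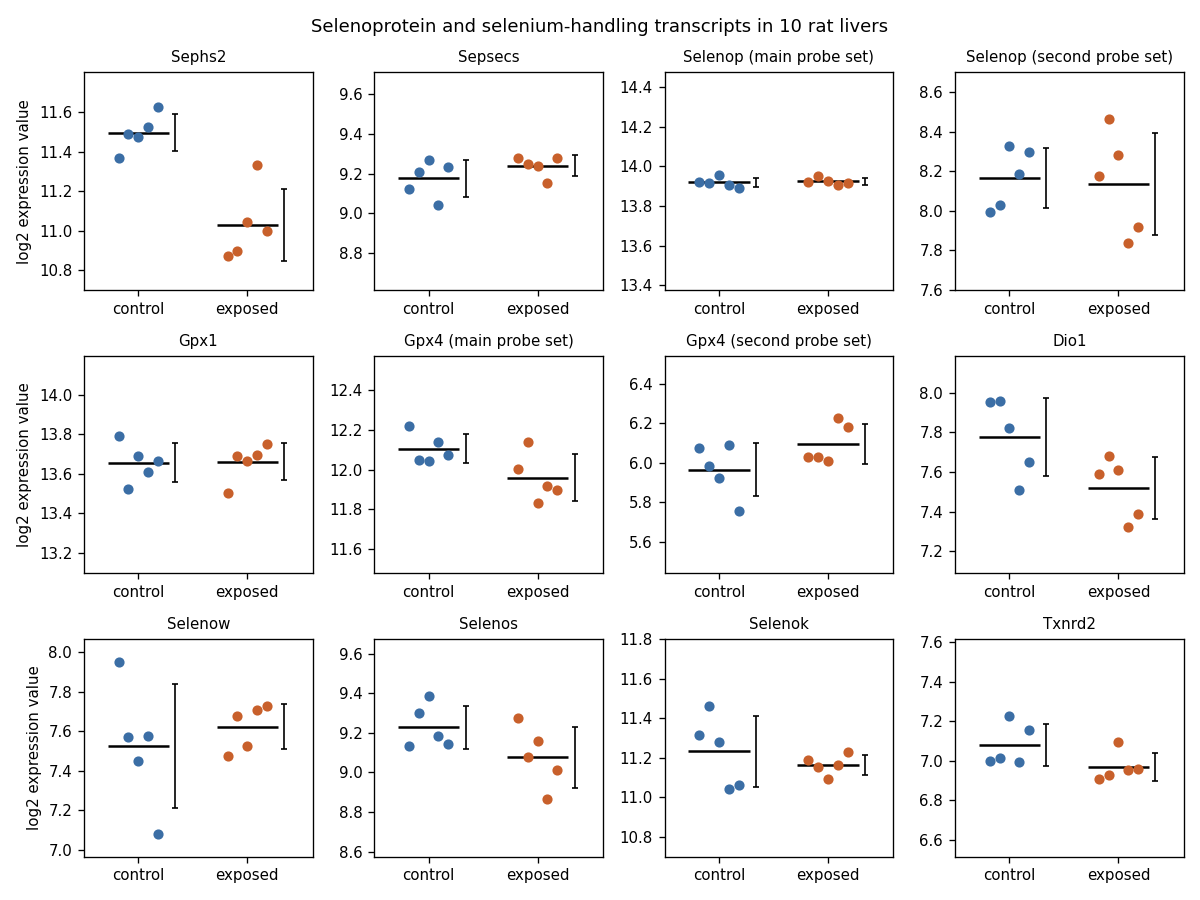
Log2 expression values of the 12 member probe sets in each liver, control animals in blue and exposed animals in orange, in order of animal number from left to right within a group. Horizontal lines are group means and bars to their right are ± 1 SD (n = 5 each). All panels span the same height on the log2 axis. The groups separate for Sephs2 and overlap in the other panels.

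Selenop and Gpx1, the genes of the plasma carrier and of the main liver peroxidase, had nearly the same mean in both groups. Selenop encodes selenoprotein P. On its main probe set control animals 1 to 5 read 13.92, 13.92, 13.96, 13.91 and 13.89, and exposed animals 1 to 5 read 13.92, 13.95, 13.92, 13.91 and 13.92. All 10 animals lay within 0.1 of one another, with a difference of 0.01 ± 0.05 (SE) and a fold of 1.00 (95% interval 0.933 to 1.08). These values are near the top of the scale, where the highest reading in the table is 15.00, and spreads there are small: probe sets with a mean from 13 to 14 varied within groups with a median SD of 0.069, against 0.133 for those from 7 to 8. How far such probe sets can still register a change was not tested. The second Selenop probe set, lower on the scale, read 8.00, 8.03, 8.33, 8.19 and 8.30 in controls and 8.18, 8.46, 8.28, 7.84 and 7.92 in exposed animals. Exposed animals lay on either side of the control range, and the difference was -0.03 ± 0.12 (SE). Its sign changed in 5 of 17 alternative settings, and it ran from -0.11 without exposed animal 2 to 0.042 without exposed animal 4.

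Gpx1 encodes the cytosolic glutathione peroxidase, which removes hydrogen peroxide and is known as a selenoprotein that depends strongly on selenium supply. Control animals 1 to 5 read 13.79, 13.52, 13.69, 13.61 and 13.67. Exposed animals 1 to 5 read 13.50, 13.69, 13.66, 13.70 and 13.75. The ranges overlapped almost entirely, with 1 exposed animal below the lowest control and 0 above the highest. The difference was 0.00 ± 0.07 (SE), a fold of 1.00 with a 95% interval of 0.906 to 1.11. These values, too, are near the top of the scale.

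Gpx4 encodes the peroxidase that reduces lipid hydroperoxides in membranes. On its main probe set control animals 1 to 5 read 12.22, 12.05, 12.04, 12.14 and 12.07, and exposed animals 1 to 5 read 12.00, 12.14, 11.83, 11.92 and 11.90. Of the exposed animals 4 lay below the lowest control, while exposed animal 2 lay among the controls. The difference was -0.15 ± 0.07 (SE), a fold of 0.903 (95% interval 0.815 to 1.00). The second probe set went the opposite way, from 5.97 ± 0.13 to 6.09 ± 0.10 (SD, n = 5 each), which differs by 0.13 ± 0.08 (SE). That difference was 0.077 without control animal 5 and 0.070 with the RNA quality ratio as a covariate. What each Gpx4 probe set detects was not tested.

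Dio1 encodes the type 1 deiodinase, which converts the thyroid hormone thyroxine to its active form in liver. Control animals 1 to 5 read 7.96, 7.96, 7.82, 7.51 and 7.65, and exposed animals 1 to 5 read 7.59, 7.68, 7.61, 7.32 and 7.39. The groups overlapped: 2 exposed animals lay below the lowest control, and the other exposed animals lay within the lower part of the control range. The mean went from 7.78 ± 0.20 to 7.52 ± 0.16 (SD, n = 5 each), so the difference was -0.26 ± 0.10 (SE), a fold of 0.835 (95% interval 0.717 to 0.972). It was the largest difference of a member after Sephs2, and its sign was negative in all 17 alternative settings, from -0.33 to -0.21. Of these, the filter on low values, the replicate block and the changed prior leave the difference unchanged by construction.

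Selenos and Selenok encode membrane proteins of the endoplasmic reticulum that take part in the disposal of misfolded proteins. For Selenos, control animals 1 to 5 read 9.13, 9.30, 9.38, 9.18 and 9.15, and exposed animals 1 to 5 read 9.28, 9.08, 9.16, 8.87 and 9.01. Exposed animals 2, 4 and 5 lay below every control and exposed animals 1 and 3 among them, with a difference of -0.15 ± 0.08 (SE), or -0.0996 without exposed animal 4. Selenok ranged from 11.04 to 11.46 in controls and from 11.09 to 11.23 in exposed animals, which lay wholly inside the control range, with a difference of -0.07 ± 0.08. Without control animal 2 that difference was -0.0091.

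Txnrd2 encodes the mitochondrial thioredoxin reductase, which keeps thioredoxin reduced. It ranged from 6.99 to 7.22 in controls and from 6.91 to 7.09 in exposed animals. Of the exposed animals 4 lay below the lowest control and exposed animal 3, at 7.09, lay inside the control range, with a difference of -0.11 ± 0.07 (SE), or -0.073 without control animal 3. Selenow encodes a small selenoprotein best known from muscle. It varied most among controls, from 7.08 in control animal 5 to 7.95 in control animal 1, and ranged from 7.47 to 7.73 in exposed animals, with a difference of 0.10 ± 0.13. Without control animal 5 that difference was -0.014.

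Sepsecs, the other gene of selenocysteine synthesis among the members, did not share the lower values of Sephs2. It ranged from 9.04 to 9.27 in controls and from 9.15 to 9.28 in exposed animals, with 2 exposed animals above the highest control. The difference was 0.06 ± 0.06 (SE), a fold of 1.05 with a 95% interval of 0.955 to 1.14, and it was 0.031 without control animal 4.

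Counting 1 probe set per gene, 5 of the 8 selenoprotein members had a lower mean in exposed livers and 3 a higher one. The 5 were Gpx4, Dio1, Selenos, Selenok and Txnrd2, and the 3 were Selenop, Gpx1 and Selenow. Lower means were found for 48.0% of all probe sets and for 57.0% of those above the median level, where all 12 member probe sets lay. The count of 5 was 7 with each array's median subtracted, where 57.9% of all probe sets and 66.5% of those above the median level were lower. It was 6 with quantile normalization, where those shares were 49.0% and 48.7%. The median difference of the 8 was -0.09, beside 0.0044 for all probe sets and -0.0145 for those above the median level. No member other than Sephs2 differed by more than 0.26 in either direction, whichever probe set is taken. The difference between the value of Sephs2 and those of the selenoproteins was not tested, since Sephs2 had been picked for its value.

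**Figure D2:**
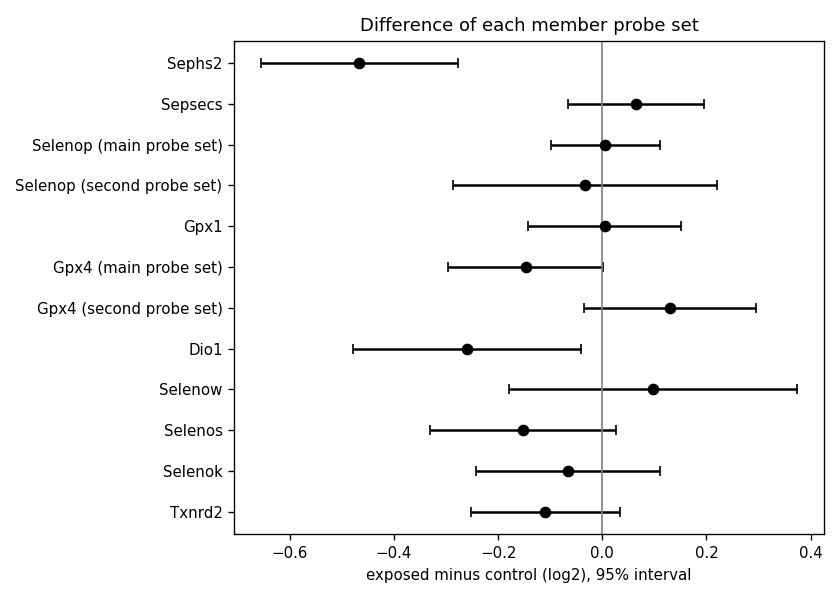
Exposed minus control difference of the 12 member probe sets on the log2 scale, with 95% intervals of the limma fit (n = 5 per group). Sephs2 lies at -0.47. Dio1 follows at -0.26, the main Selenop probe set and Gpx1 lie at 0.01 and 0.00, and the main and second probe sets of Gpx4 lie on opposite sides of 0.

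The variation between animals of a group does not depend on the difference that chose Sephs2, so the members were also compared across the 10 livers with group means removed. Of the 9 relations with Sephs2, 0 passed the exact permutation test within groups after Benjamini-Hochberg adjustment, and 1 had an unadjusted p under 0.05. Within groups 7 of the 9 correlations were negative and 2, those of Gpx1 and Txnrd2, were positive. Ranked by r from the highest down among 9665 genes above the median level, Gpx1 stood at 3345 and Selenow at 6495. The share of all genes with a negative correlation was not counted, and all 9 relations use the same Sephs2 values. Nothing is therefore read from the count of signs.

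Dio1 had the largest Pearson's r with Sephs2 in size over all 10 livers, r = -0.66 (exact permutation p = 0.0242, adjusted p = 0.218) and Spearman's rho = -0.53 (exact permutation p = 0.102, adjusted p = 0.398). The sign of this relation within groups was thus negative, while between the groups both genes had lower means in exposed livers. Without the 2 animals farthest from the median of Sephs2, exposed animal 4 and control animal 5, r was -0.51 (exact permutation p = 0.210). Exposed animal 4 had the highest Sephs2 of its group and the lowest Dio1 and Selenos.

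Selenop gave r = -0.55 (exact permutation p = 0.0817, adjusted p = 0.325) and rho = -0.68 (exact permutation p = 0.0267, adjusted p = 0.240), and r was -0.23 without the 2 farthest animals. Its main probe set varied so little between animals that this relation rests on deviations under 0.1 on the log2 scale. Selenos gave r = -0.62 (exact permutation p = 0.108, adjusted p = 0.325) and rho = -0.47 (exact permutation p = 0.213, adjusted p = 0.480). Without the 2 farthest animals r was -0.034. It was -0.22 without exposed animal 4 alone and -0.58 without control animal 5 alone, so the relation of Selenos rests mostly on exposed animal 4. Gpx4 gave r = -0.51 (exact permutation p = 0.230, adjusted p = 0.438) and rho = -0.41 (exact permutation p = 0.318, adjusted p = 0.556), and r was -0.78 without the 2 farthest animals (exact permutation p = 0.0625).

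**Figure D3:**
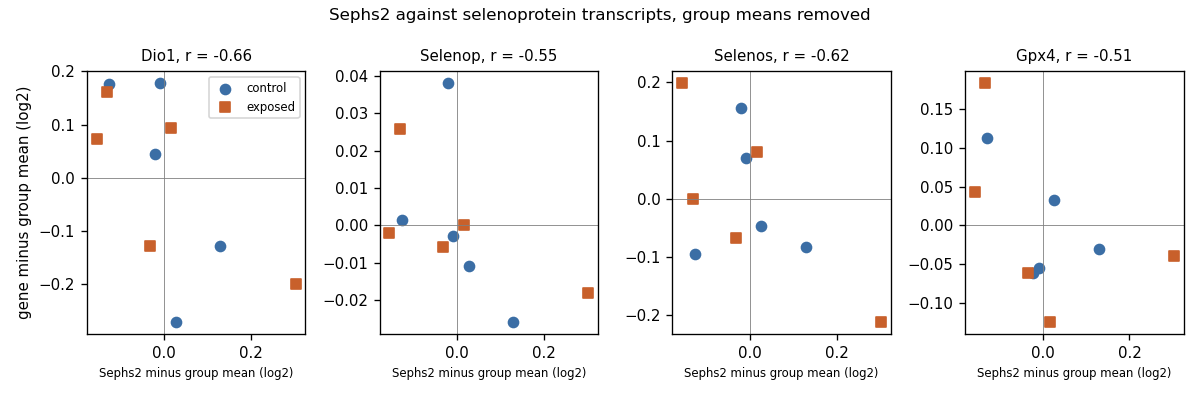
Sephs2 against Dio1, Selenop, Selenos and Gpx4 in 10 livers, each value minus the mean of its group on the log2 scale, with control animals as blue circles and exposed animals as orange squares. The vertical scales differ between panels, and that of Selenop spans less than 0.1. The exposed animal at the far right is exposed animal 4, and Pearson's r lies between -0.66 and -0.51.

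Selenop had the largest rho in size, and Gpx4 the largest r once the 2 farthest animals were left out. The other 5 relations with Sephs2 had r between -0.31 and 0.27 over all livers, with adjusted p values from 0.438 to 0.764 by the exact permutation test. Without exposed animal 4, r was 0.15 for Sepsecs, -0.68 for Selenow, -0.53 for Selenok and 0.57 for Txnrd2. Over all livers Sepsecs had r = -0.30 and Gpx1 r = 0.11, with rho = -0.30 and 0.0061. Among all 45 pairs of the 10 genes, 25 correlated positively and 20 negatively within groups. The exact permutation test passed 0 pairs after adjustment over the 45, with 2 at an unadjusted p under 0.05, Sephs2 with Dio1 and Gpx4 with Txnrd2 (r = -0.62, exact permutation p = 0.0489, adjusted p = 0.602, rho = -0.64, exact permutation p = 0.0225, adjusted p = 0.510). Without the 2 animals farthest from the median of Gpx4, that r was -0.70. The pair of Selenop probe sets gave r = 0.52 (exact permutation p = 0.110) and that of Gpx4 r = 0.10 (exact permutation p = 0.758), with adjusted p values of 0.220 and 0.758, rho of 0.55 and 0.067, and r of -0.042 and 0.22 without the 2 farthest animals.

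The genes whose pattern was most like Sephs2 within groups, among 9665 genes above the median level, were Pawr, Ets2, Sfrp4, Id1 and Hrh3. Pearson's r ran from 0.90 to 0.94 over 10 livers, and Spearman's rho from 0.64 for Id1 to 0.87 for Ets2. Exposed animal 4, with the highest Sephs2 of its group, read 7.44 for Id1 against 6.70 to 6.86 in the other exposed animals. A high reading in that animal is built into the choice of genes that follow Sephs2. Pawr encodes a pro-apoptotic protein, Ets2 a transcription factor, Sfrp4 a secreted Wnt antagonist, Id1 an inhibitor of helix-loop-helix transcription factors and Hrh3 a histamine receptor. None is a selenium gene, and their exposed minus control differences, from -0.10 to 0.11, were smaller than that of Sephs2. They are the extremes of a search over many genes and are given as a description. Of the 9 other members, the nearest to Sephs2 by this measure, Txnrd2, ranked 2183 of 9665. Selenoproteins outside the members were not ranked.

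Other genes of selenocysteine synthesis and insertion were measured for 10 of 10, and limma called 0 in either direction. They were lower for 7 and higher for 3, with a median difference of -0.03. Of the 10 genes, 9 lay above the median level, where 57.0% of probe sets were lower in exposed livers. Only 1 lower member had an unadjusted limma p under 0.05 (2.39% of all probe sets are lower at that level). This was Sars1, which charges the selenocysteine transfer RNA with serine before its conversion, at -0.15 ± 0.07 (SE; limma adjusted p 0.879). Sephs1, the relative of Sephs2 that is not a selenoprotein, differed by -0.09 ± 0.06 (adjusted p 0.888), with 3 of its 5 probe sets lower. Secisbp2, which binds the messenger RNA structure that recodes the stop codon, differed by -0.11 ± 0.08 (limma adjusted p 0.899). The remaining genes of this list were Pstk, Secisbp2l, Eefsec, Trnau1ap, Scly, Rpl30 and Ncl, all between -0.08 and 0.07.

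Other selenoproteins were measured for 13 of 15 genes, since Selenoo and Selenov had no probe set naming them alone. Limma called 0 of them, 8 were lower and 5 higher, and the median difference was -0.05. Of the 13 genes, 11 lay above the median level, where 57.0% of probe sets were lower in exposed livers. Selenoi, an enzyme of phospholipid synthesis, differed by -0.19 ± 0.08 (SE; limma adjusted p 0.879), or by -0.12 without exposed animal 5. Of the exposed animals 4 of 5 lay below the lowest control for Selenoi. It was the 1 gene of these 13 with an unadjusted limma p under 0.05, beside 5.46% of all probe sets. Nothing is read from that count. Selenot, a redox protein of the endoplasmic reticulum, differed by -0.13 ± 0.07 (adjusted p 0.880), with 2 of 2 probe sets lower. Gpx3, the plasma glutathione peroxidase, went from 7.41 ± 0.33 to 7.65 ± 0.18 (SD, n = 5 each), differing by 0.24 ± 0.14 (SE; limma adjusted p 0.880), or 0.16 without control animal 2. Txnrd1, the cytosolic thioredoxin reductase, differed by -0.13 ± 0.08. The probe sets of Gpx2 and Dio2 were below the median level of the table, at 3.83 and 2.99.

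The receptors that take up selenoprotein P showed no call either. Lrp1, a broad scavenger receptor of hepatocytes that also binds selenoprotein P, differed by -0.20 ± 0.13 (SE; limma adjusted p 0.885), with 2 of 2 probe sets lower. Lrp8, the receptor of brain and testis, differed by 0.08 ± 0.07 (adjusted p 0.911) at a level of 4.16, or 0.024 without control animal 4, and Lrp2, the receptor of kidney, by -0.01 ± 0.10 (adjusted p 0.993).

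**Figure D4:**
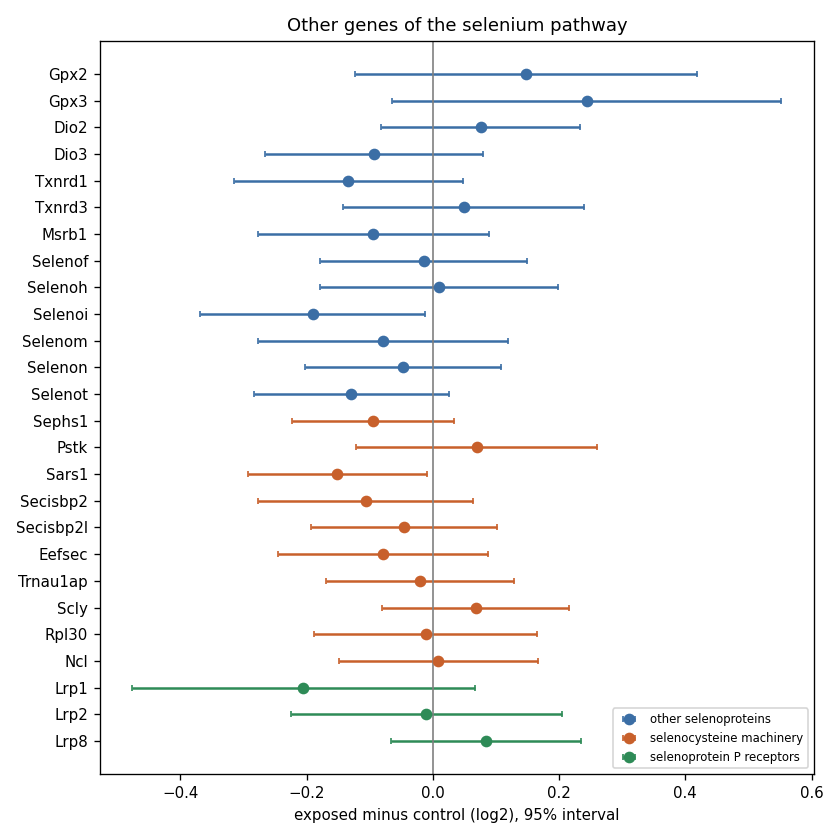
Exposed minus control difference on the log2 scale, with 95% intervals of the limma fit (n = 5 per group), for 13 other selenoproteins, 10 genes of the selenocysteine machinery and 3 receptors of selenoprotein P, each shown by the probe set of highest mean. The intervals of Selenoi and Sars1 lie below 0 before adjustment for the number of probe sets, and the other intervals cross 0.

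The enzymes that work beside selenoproteins in glutathione and thioredoxin metabolism were measured for 17 of 18 genes. They were lower for 12 and higher for 5, with a median difference of -0.02, and limma called 0. All 17 lay above the median level, where 57.0% of probe sets were lower in exposed livers, or 66.5% with array medians subtracted. Gsr, which recycles glutathione, differed by -0.13 ± 0.06 (SE; limma adjusted p 0.879) and Sod2, the mitochondrial superoxide dismutase, by -0.16 ± 0.08 (adjusted p 0.879). Txnip, an inhibitor of thioredoxin, differed by 0.13 ± 0.09 (adjusted p 0.894). The peroxide-removing enzyme Cat and the cytosolic dismutase Sod1 each differed by 0.02, with SEs of 0.05 and 0.06.

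As Dio1 activates thyroid hormone and is itself induced by it, genes of thyroid hormone action were examined. Of 10 genes 9 were measured, 5 lower and 4 higher, with a median difference of -0.01 and 0 called by limma. All 9 lay above the median level, where 57.0% of probe sets were lower in exposed livers. A part of thyroid hormone in the Dio1 values was not tested. Thrsp, a thyroid hormone-responsive gene of lipid synthesis, differed by 0.25 ± 0.17 (SE; limma adjusted p 0.894), with 3 of 3 probe sets higher, and by 0.13 without exposed animal 3. The malic enzyme Me1 differed by 0.09 ± 0.12, and the receptor Thrb by -0.07 ± 0.10. Gpd2, a mitochondrial glycerophosphate dehydrogenase, differed by -0.15 ± 0.17 (adjusted p 0.937), or 0.027 without control animal 5. Serpina7, the thyroxine-binding globulin, differed by 0.58 ± 0.43 (adjusted p 0.899), or 1.01 without exposed animal 2, which read 5.85 against 7.60 to 8.20 in the other exposed animals.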

How the data were processed

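The submitters' processing notes name RMA and R 2.8.1 as the tools with which the authors made the deposited log2 values, 1 per probe set. RMA normalizes arrays to one another, so a shift shared by most genes is removed. Their range shows the log2 scale. The table holds 31099 probe sets, and 57 Affymetrix controls among them were not tested. Names came from the platform annotation (20826 probe sets with 1 gene, 436 with several, 9780 unnamed here), and 20758 were found in RefSeq's table for GRCr8 by gene number.

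All 31042 probe sets were fitted with limma 3.58.1 in R 4.3.3 (lmFit, eBayes, two-sided, Benjamini-Hochberg over all, threshold 0.05). Because eBayes draws small variances towards a common value, standard errors can exceed what the probe set's own spread gives. Within-group correlations used all 14400 rearrangements of animals within groups, two-sided (smallest p 6.9e-05), with Python 3.11.15 and scipy 1.17.1. The fit and the permutation test were tested on simulated data. Alternatives covered filtering, centring, quantile normalization, a replicate block, array weights, the prior, RNA quality, other probe sets and leaving out each animal. Members and lists were chosen with earlier results of these data known. Named genes are all members, up to 3 genes of each list by smallest p, and the 5 genes most correlated with Sephs2, and a few others (among them Txnrd1, Cat, Sod1, Me1 and Thrb) were named after their values were seen. Of the cell marker lists only counts, levels and median differences are given, with no gene named. The labels describe 10 rats, and p-values measure the spread between them. The number of arrays limits the precision.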

Additional observations from a re-analysis of the deposited data

Results flagged for a closer look

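Of 64 groups examined, 4 held an animal well apart from the rest, judged by its distance to the closest value as a share of the group's whole range. Chance gives about 3.2, or 1 in 20, for groups not chosen by their values, which does not hold for Id1. For the members, exposed animal 3 read 7.09 for Txnrd2 (others 6.91 to 6.96), which is why the Txnrd2 groups overlap. Control animal 4 read 3.88 for Lrp8 (others 4.15 to 4.23). Exposed animal 2 read 5.85 for Serpina7 (others 7.60 to 8.20). Exposed animal 4 read 7.44 for Id1 (others 6.70 to 6.86), and the same animal had the highest Sephs2 of its group. Id1 was examined only because it had been picked for its correlation with Sephs2, so nothing is read from the shared animal.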

How the results depend on the processing

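With array medians subtracted the main Selenop probe set went to -0.017, a move larger than its SD between animals. No other member difference moved that far, but leaving out 1 of 5 animals cannot move a difference by a whole SD. Filtering, the replicate block and the prior leave the difference itself unchanged, so those runs could not move it. The sign changed in 7 of 17 alternatives for Gpx1 and in 2 for Selenow. It changed in 4 for the main Selenop probe set and in 5 for the second. Sephs2 stayed between -0.54 and -0.43 when each animal was left out and between -0.49 and -0.41 otherwise, and the median of the 8 selenoproteins between -0.12 and -0.050. Over the whole table limma passed 0 to 1 probe sets when each animal was left out, the 1 arising without exposed animal 1. Counts of selenoprotein members with a lower mean ran from 5 to 7. Member probe sets at an unadjusted p under 0.05 numbered 1 to 3, with 1 left without control animal 1, control animal 2, exposed animal 4 or exposed animal 5.

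No correlation with Sephs2 and no pair of members passed in any alternative, but signs were not fixed. With group means kept in the values, r was 0.37 for Gpx4, 0.31 for Dio1, 0.22 for Selenos and 0.095 for Selenok. With the RNA quality ratio removed it was 0.27 for Selenow and 0.036 for Selenok, and for Gpx1 it was -0.063 without the 2 animals farthest from the median of Sephs2. Leaving out each animal gave r from -0.46 to 0.15 for Sepsecs, -0.24 to 0.38 for Gpx1, -0.68 to -0.0083 for Selenow, -0.79 to -0.22 for Selenos, -0.53 to -0.16 for Selenok and 0.17 to 0.57 for Txnrd2. The cause was not tested, apart from group means, whose difference enters when they are kept. Counts of members and pairs were added after seeing the data.

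Same-numbered animals did not deviate together (r from -0.070 to 0.094), so the numbers were not taken as pairs. With the replicate block limma called 0 probe sets, and the Sephs2 difference was -0.47.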
